A study of Mus musculus with 18 samples.

Results

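The immunity-related GTPases (IRG) are a family of interferon-inducible GTP-binding proteins, and 9 of their genes were followed here among the 23420 genes of the expression files: Irgm1, Irgm2, Igtp, Iigp1, Tgtp1, Tgtp2, Ifi47, 9930111J21Rik1 and 9930111J21Rik2. They were picked by symbol after the difference between Tlr997 and Tlr9het B cells with CpG had been seen, so that difference is described below without a test. RNA-seq was done on splenic B cells of MRL/lpr mice, a lupus-prone strain that carries the Fas lpr mutation, bead-purified from animals of 5 to 7 weeks. In the first experiment all females lacked Tlr7: Tlr997 Tlr7-/- cells, whose TLR9 carries the signaling (TIR) domain of TLR7, and Tlr9+/- Tlr7-/- cells (Tlr9het) were left unstimulated or given CpG, a TLR9 agonist, at 10 µg/ml for 4 hours. In the second, male Tlr779 Tlr9-/- cells (a TLR7 with TLR9's TIR domain) were cultured alone or with the TLR7 agonist CL097, at 5 µg/ml for 4 hours. The study's methods and the treatment label write Tlr9-/- Tlr7-/- for the control that the library titles call Tlr9+/-. The study's results and figure legend also write Tlr9+/- Tlr7-/-, and the titles were followed. The chimeric alleles were made in the endogenous loci directly in MRL/lpr mice. Each of the 6 groups had 3 libraries, and the 2 experiments differed in sex, genotype and agonist, so they were not compared with each other.

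IRG proteins are made in large amounts when interferon-gamma, and to a lesser degree type I interferon, reaches a cell. Transcription factors switched on at the receptors then bind GAS elements or, in a complex that includes STAT2 and IRF9, ISRE elements in the promoters of target genes. The effector proteins (Iigp1, also called Irga6; Tgtp1 and Tgtp2, called Irgb6; Ifi47, called Irgd) load onto the vacuole that encloses an intracellular parasite such as Toxoplasma and help to break it. The regulators Irgm1, Irgm2 and Igtp (Irgm3) stay on the cell's own membranes and hold the effectors in their GDP-bound, inactive form there. Loss of Irgm1 is known to disturb lymphocyte survival and autophagy. 9930111J21Rik1 and 9930111J21Rik2 are IRG genes of the Irgb group whose individual roles are less well known.

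Of the 9 genes, 8 lay in 2 clusters on mouse chromosome 11 (GRCm38 annotation). On the minus strand stood Irgm1 (48865245 to 48871420), 9930111J21Rik1 (48946150 to 48979381), Tgtp1 (48985329 to 48992246), 9930111J21Rik2 (49037660 to 49051242) and Tgtp2 (49057196 to 49064212), followed on the plus strand by Ifi47 (49076587 to 49096987). Igtp (58199556 to 58207592) and Irgm2 (58214977 to 58222783) formed the other cluster, on the plus strand. The order 9930111J21Rik, Tgtp occurred in the first cluster 2 times in a row, and the genes of the first such pair are near copies of their namesakes in the next. Of all 75-base windows of the Tgtp1 transcripts, 74.6% also occurred in Tgtp2, and 74.3% of those of 9930111J21Rik1 occurred in 9930111J21Rik2. Reads of 75 bases could therefore not always be assigned within these pairs, and their separate values are uncertain. Irgm1 and Iigp1 shared no such window with another gene, Ifi47 shared 1.55%, and Irgm2 and Igtp shared 4.78% and 7.8%.

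The promoters are shown because they hold the letters of both interferon elements side by side. RefSeq promoters (GRCm38.p6, 250 bases before to 50 after the annotated start) were given for 8 of the 9 members (all but Iigp1). They were searched on both strands for TTCNNNGAA (GAS) and GAAANNGAA (ISRE core), and matches may share bases. GAS letters stood in 4 of the 8 promoters and ISRE-core letters in 6, against 8.3% and 8.56% of all 32851 promoters. The 4 with both were Irgm2, Igtp, Tgtp1 and Tgtp2, and 1.07% of all promoters held both. These 4 formed 2 pairs of alike promoters when aligned, Irgm2 and Igtp (73.5% identical) and Tgtp1 and Tgtp2 (67.7%). They are therefore not separate cases to set against the shares over all promoters. In each of these 4 the ISRE core began 11 bases after the first base of the GAS, a spacing noticed in these promoters and then counted. In all, 9 of the 32851 promoters (0.0274%) had it, and among them were the IRG gene Gm12185 and Adar, which encodes an RNA-editing enzyme. The 50-base stretches follow, 5′ to 3′ on the gene's strand, with GAS and ISRE-core letters in capitals, from Irgm2 (chr11:58214887-58214936, plus), Igtp (chr11:58199496-58199545, plus), Tgtp1 (chr11:48992300-48992349, minus), Tgtp2 (chr11:49064259-49064308, minus) and Gm12185 (chr11:48927234-48927283, minus).
Irgm2: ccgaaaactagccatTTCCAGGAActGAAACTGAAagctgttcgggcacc
Igtp: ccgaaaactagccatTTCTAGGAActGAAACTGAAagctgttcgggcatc
Tgtp1: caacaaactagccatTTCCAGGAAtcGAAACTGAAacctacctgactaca
Tgtp2: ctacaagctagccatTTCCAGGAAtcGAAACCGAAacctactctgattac
Gm12185: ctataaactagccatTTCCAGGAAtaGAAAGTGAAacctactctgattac

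Irgm1 and 9930111J21Rik1 held ISRE-core letters without the GAS, and their stretches are shown for that contrast (chr11:48871427-48871476 and chr11:48979332-48979381, both minus strand). In Irgm1 there were 2 overlapping ISRE cores, at 30 and 24 bases before the start, and in 9930111J21Rik1 the match lay after the start, at base 27.
Irgm1: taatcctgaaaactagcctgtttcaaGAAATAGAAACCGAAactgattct
9930111J21Rik1: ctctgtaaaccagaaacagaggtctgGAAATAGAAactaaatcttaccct
No match stood in the windows of Ifi47 and 9930111J21Rik2. The 9930111J21Rik2 window had 283 consecutive bases in common with that of 9930111J21Rik1, moved by 17 bases, and ended inside the letters that match in the latter, so the missing match there follows from where the annotated start lies. Letters in a promoter are a description and do not show that a factor binds.

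**Figure D1:**
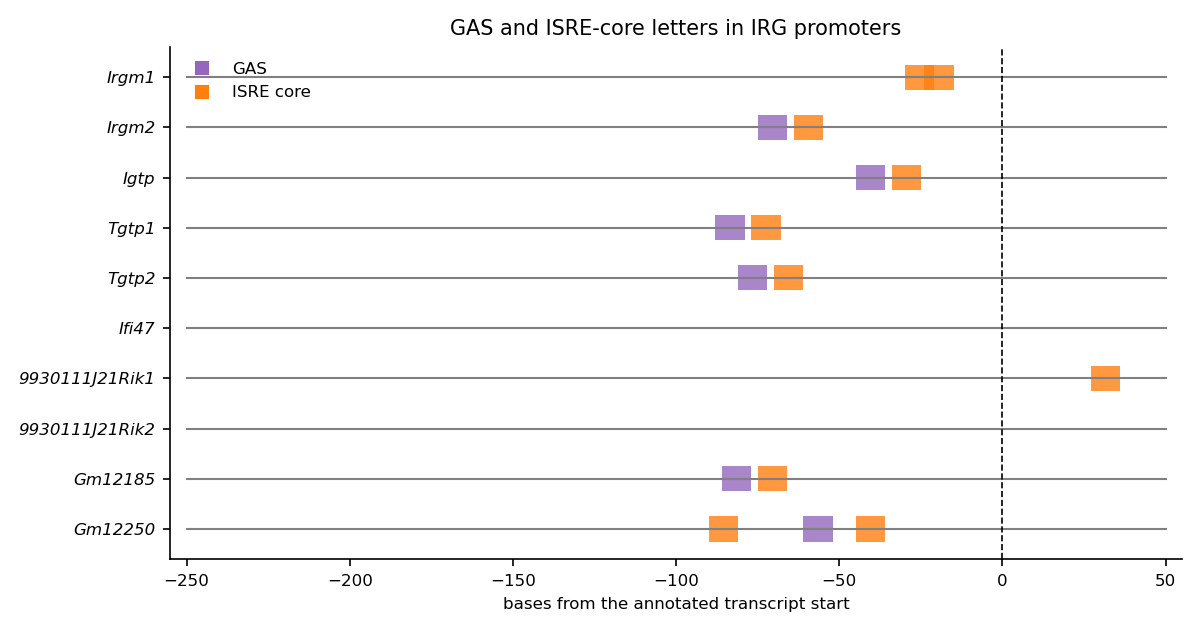
GAS (purple) and ISRE-core (orange) letters in the promoters of 8 members and of Gm12185 and Gm12250; the horizontal axis is the distance in bases from the annotated transcript start, each box spans the 9 bases of a match, and the grey line is the 300-base window. The GAS stands just before the ISRE core in Irgm2, Igtp, Tgtp1, Tgtp2 and Gm12185.

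Values are log2 CPM (library-scaled read counts) as deposited, after quantile normalization, so the depth of each library is unknown, and no counting interval or floor can be given. Libraries of a group correlated with r = 0.944 to 0.989 over 11676 genes. The lowest were those of Tlr997 unstimulated library 3 with libraries 1 (0.944) and 2 (0.9545), and all other pairs reached at least 0.976. Tlr7 stood at 2.68 to 5.36 log2 CPM in the 12 Tlr7-/- libraries and at 6.61 to 7.82 in Tlr779. Within the Tlr7-/- libraries it stood at 4.81 to 5.36 in Tlr997 and at 2.68 to 4.28 in Tlr9het. Tlr9 stood at 6.93 to 7.47 in Tlr779 Tlr9-/- libraries and at 7.01 to 8.08 in the other 12, so the gene-level value of Tlr9 does not check the Tlr9 labels. The B cell markers Cd79a, Cd79b, Ms4a1, Pax5 and Cd22 summed to 4870 to 6550 CPM in unstimulated libraries. Their sum was 1150 to 1210 CPM in Tlr9het and 2030 to 2480 CPM in Tlr997 with CpG, and 1790 to 2480 CPM in Tlr779 with CL097. The 5 dendritic cell markers summed to 12.8 to 25.8 CPM without and 46.1 to 68.3 CPM with an agonist. This sum does not stand for each marker, and 1 or 2 of the 5 were under 0 log2 CPM in all 3 libraries of each group. The 3 that could be fitted had a median log2 fold change of -0.49 in Tlr9het, -0.55 in Tlr997 and 0.23 in Tlr779. The 7 macrophage or monocyte markers summed to 124 to 432 CPM without and 78.5 to 197 CPM with an agonist. The 7 T cell markers summed to at most 27.3 CPM, the 5 NK cell markers to at most 10.9 CPM and the 5 neutrophil markers to at most 130 CPM. The NK cell list had 2 to 4 of its 5 markers under 0 log2 CPM in all 3 libraries of each group. The 4 erythroid markers summed to 12.2 to 474 CPM. These are bulk samples, in which fewer cells of a type and less RNA per cell cannot be told apart, and the part of the markers in the results below was not tested.

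To compare levels between members, log2 CPM was lowered by log2 of the gene's exon length in kilobases. In unstimulated Tlr9het cells the order was Ifi47 (5.72 ± 0.29 log2 CPM per kilobase, SD, n = 3), Igtp (5.60 ± 0.18), Irgm1 (5.39 ± 0.36), Irgm2 (4.39 ± 0.35), 9930111J21Rik1 (3.52 ± 0.33), Tgtp2 (3.47 ± 0.35), Tgtp1 (0.58 ± 0.21), Iigp1 (0.48 ± 1.00) and 9930111J21Rik2 (-2.72 ± 0.33). The libraries of neighbours overlapped for Ifi47 and Igtp, Igtp and Irgm1, 9930111J21Rik1 and Tgtp2, and Tgtp1 and Iigp1. Ifi47, Igtp and Irgm1 were the 3 highest members in all 6 groups and 9930111J21Rik2 was the lowest in all 6. 9930111J21Rik1 moved down, from place 5 of 9 in unstimulated Tlr9het cells to place 8 with CpG, at 0.94 ± 0.22 log2 CPM per kilobase.

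**Figure D2:**
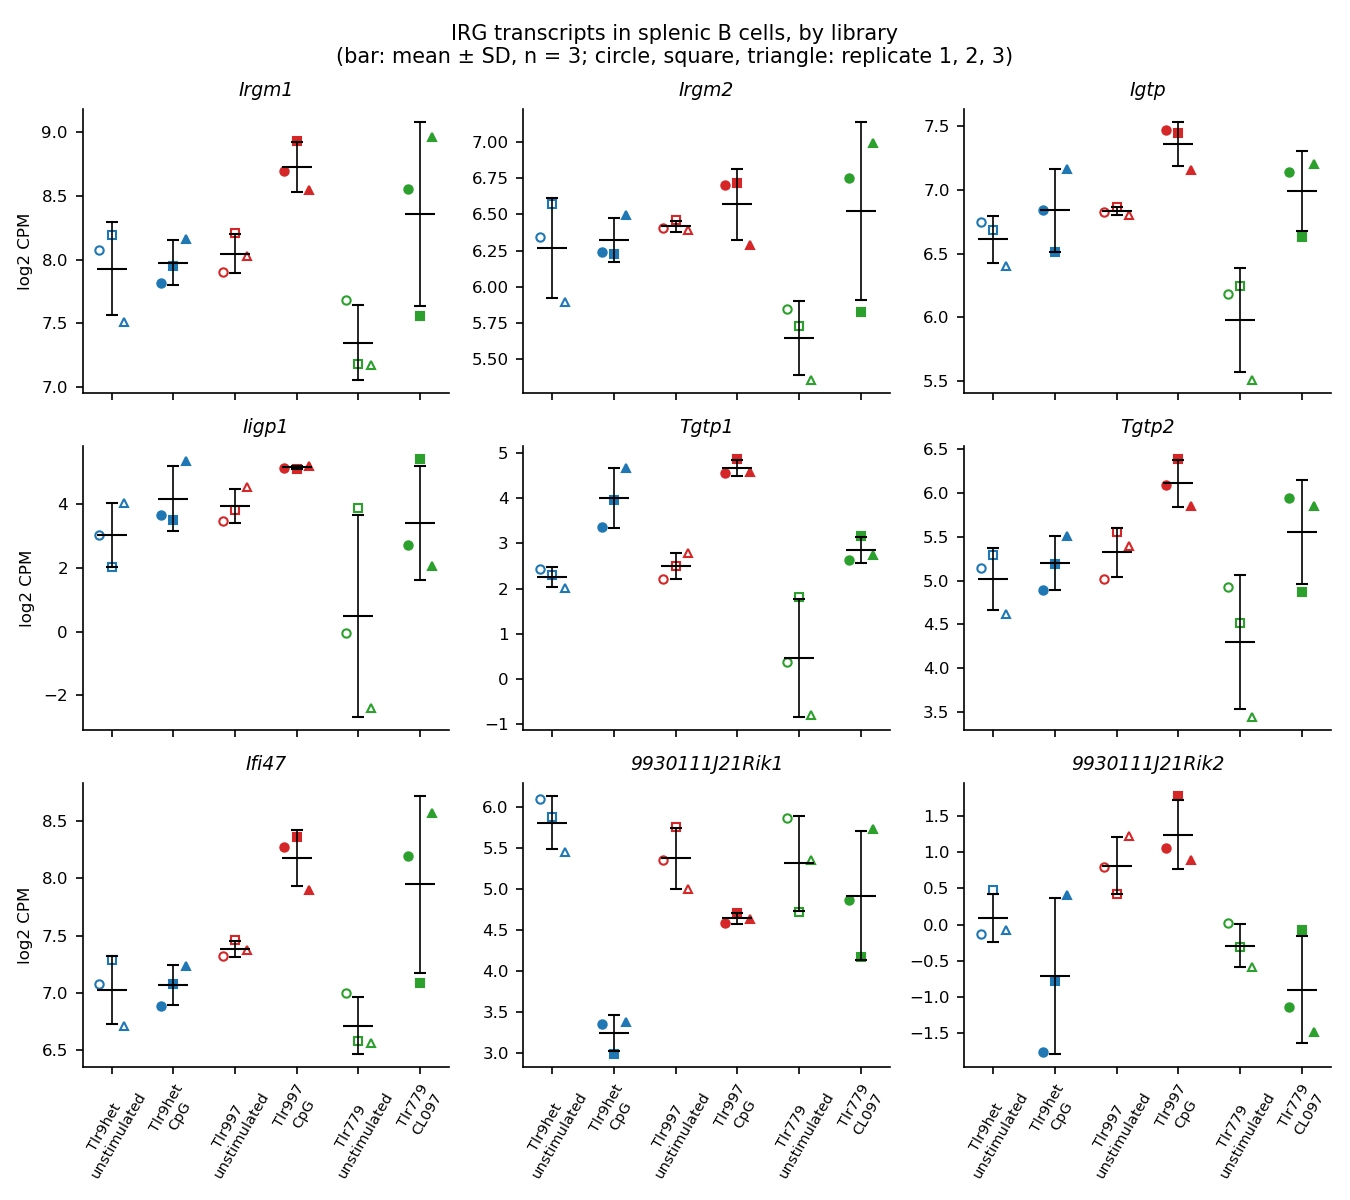
Log2 CPM (vertical axes, a different range in each panel) of the 9 members in the 18 libraries; open symbols are unstimulated and filled symbols stimulated libraries, colors give the genotype, symbol shapes the replicate number, and bars the mean ± SD of 3 libraries. With CpG, Irgm1, Tgtp2, Ifi47 and both 9930111J21Rik genes show every Tlr997 library above every Tlr9het library, where 3453 of all 11494 genes tested had groups without overlap in that comparison.

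The contrast that led to the genes did not use the Tlr779 libraries, but earlier results of these data were known when the members were picked. Of the 9 members, 8 passed the filter on low values (over 0 log2 CPM in at least 3 of the 6 Tlr779 libraries). With CL097, 6 of these were called higher and none lower: Irgm1, Irgm2, Igtp, Tgtp2, Ifi47 and Tgtp1. A gene was called where limma's adjusted p was below 0.05 and the log2 fold change exceeded 0.5 in either direction. In all, 22.7% of the 11082 genes tested were called higher and 23.6% lower with CL097. The members' median log2 fold change was 1.12, against -0.02 over all genes. 9930111J21Rik2 did not pass the filter. Tgtp1 and Iigp1 had 2 and 1 unstimulated libraries over 0 log2 CPM and so passed only with the help of the CL097 libraries. This favours a rise in them, so no rise is read from their fits. Tgtp1 is in the count of 6 and both genes are in the median, so these are given as a description only.

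Among the regulators, Irgm1, the master regulator that guards lysosomes and the Golgi from the effectors, stood at 7.69, 7.18 and 7.17 log2 CPM without and 8.55, 7.55 and 8.96 with CL097 in replicates 1, 2 and 3. Irgm2 stood at 5.84, 5.73 and 5.36 without and 6.75, 5.83 and 7.00 with it. Igtp, a regulator of the endoplasmic reticulum and lipid droplets, stood at 6.18, 6.25 and 5.50 without and 7.14, 6.63 and 7.21 with it. For Igtp the groups did not overlap, while for Irgm1 and Irgm2 the CL097 library 2 lay within the unstimulated range. Groups without overlap were found for 3 of the 8 members tested, against 67.8% of all genes tested with CL097. The log2 fold changes were 1.01 (SE 0.33) for Irgm1, 0.88 (SE 0.28) for Irgm2 and 1.01 (SE 0.22) for Igtp, that is, 2.01, 1.84 and 2.02-fold. The limma adjusted p was 0.027 for Irgm1, 0.026 for Irgm2 and 0.0046 for Igtp.

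Among the effectors, Ifi47 stood at 7.00, 6.58 and 6.56 log2 CPM without and 8.19, 7.08 and 8.56 with CL097. Tgtp2 stood at 4.93, 4.52 and 3.44 without and 5.95, 4.87 and 5.85 with it. Tgtp1 stood at 0.37, 1.82 and -0.79 without and 2.64, 3.17 and 2.74 with it. The groups were apart for Ifi47 and Tgtp1, as for 67.8% of all genes tested, and overlapped for Tgtp2, again through CL097 library 2. The log2 fold change was 1.23 (SE 0.34) for Ifi47 (adjusted p = 0.013, limma) and 1.26 (SE 0.41) for Tgtp2 (adjusted p = 0.027, limma). For Tgtp1 the log2 fold change was 2.38 (SE 0.58), and no p is given since the CL097 libraries helped it past the filter. When the CPM of Tgtp1 and Tgtp2 were summed, which removes the question of how reads were split between the copies, the pair rose by 1.37 on the log2 scale (SE 0.38; adjusted p = 0.014).

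Iigp1, the best studied effector, varied most between the Tlr779 libraries among the members, at -0.03, 3.88 and -2.39 log2 CPM without and 2.71, 5.42 and 2.06 with CL097. Library 2 was the highest in both groups for Iigp1 and likewise for Tgtp1. With CL097 it was also the highest for 9930111J21Rik2, and the lowest of the 3 for Irgm1, Irgm2, Igtp, Tgtp2, Ifi47 and 9930111J21Rik1. The erythroid markers were also highest in the libraries numbered 2, at 457 CPM without and 472 CPM with CL097, against 71.7 to 222 CPM in the other 4, and their part was not tested. Every same-number difference of Iigp1 was positive (2.74, 1.54 and 4.46), but with a spread between libraries of up to 3.17 (SD) the log2 fold change of 2.91 (95% confidence interval -0.57 to 6.39) did not pass (adjusted p = 0.13, limma). When libraries of the same number were taken as pairs through a replicate block, it passed the thresholds. The filter favoured a rise in Iigp1, so no call is read from that. 9930111J21Rik1 stood at 5.86, 4.71 and 5.36 without and 4.87, 4.16 and 5.72 with CL097, a log2 fold change of -0.39 (SE 0.41) with an adjusted p of 0.43 (limma).

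The calls of Irgm1, Irgm2 and Tgtp2 rested on the libraries of this small group. With CL097 library 1, CL097 library 3 or unstimulated library 3 left out, 3 members stayed called (Igtp, Tgtp1 and Ifi47). Of these, Tgtp1 owed its place among the tested genes to the CL097 libraries. Without unstimulated library 2, Irgm1 and Irgm2 lost their calls. Iigp1 then passed the thresholds at a log2 fold change of 4.61, from which no rise is read for the same reason. Without any filter on low values none of the 9 was called (adjusted p of 0.067 to 0.19 by limma for the 6 that were called with it, at the same log2 fold changes).

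**Figure D3:**
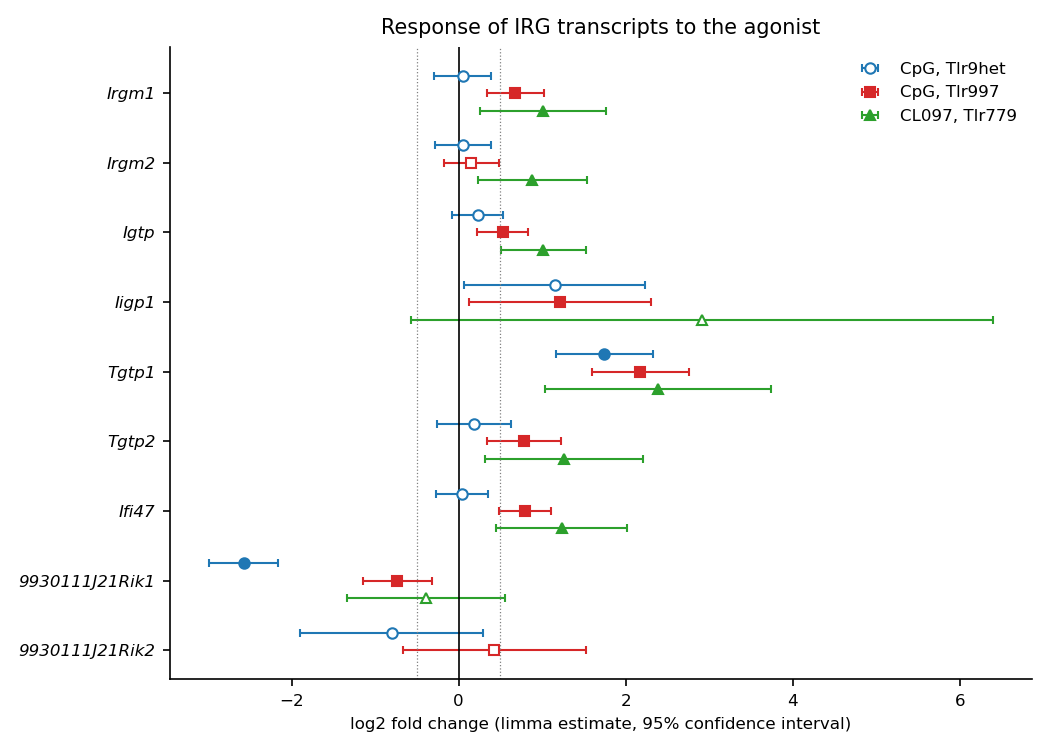
Log2 fold change with agonist (horizontal axis, limma estimate with its 95% confidence interval) of the 9 members in Tlr9het (circles, CpG), Tlr997 (squares, CpG) and Tlr779 (triangles, CL097); filled symbols passed both thresholds, and dotted lines mark 0.5 in each direction. Irgm1, Igtp, Tgtp2 and Ifi47 sit between 0.04 and 0.23 in Tlr9het and above 0.5 in Tlr997 and Tlr779, and 9930111J21Rik1 lies below 0 in all 3.

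With CpG in Tlr9het cells few members were called. The CpG libraries had entered the choice of the genes, so responses to CpG are given with their errors and calls but no p. Nothing is read from the counts of calls, since a small change here and a larger one in Tlr997 are partly built into that choice. Of the 9 members, 1 was called higher and 1 lower, where 29.7% of the 11494 genes tested were called higher and 28.2% lower. The members' median log2 fold change was 0.05, against 0.04 over all genes. In Tlr9het, Irgm1 stood at 8.07, 8.20 and 7.51 log2 CPM without and 7.81, 7.95 and 8.16 with CpG. Ifi47 stood at 7.08, 7.29 and 6.71 without and 6.89, 7.08 and 7.23 with it. For both genes the groups overlapped, with log2 fold changes of 0.05 (95% confidence interval -0.29 to 0.39) and 0.04 (-0.27 to 0.35). Irgm2, Igtp and Tgtp2 likewise lay between 0.05 and 0.23, with overlapping groups.

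The member that rose in Tlr9het was Tgtp1, from 2.44, 2.30 and 2.02 to 3.36, 3.97 and 4.67 log2 CPM, a log2 fold change of 1.74 (SE 0.27). Its near copy Tgtp2 stood at 5.14, 5.29 and 4.62 without and 4.90, 5.19 and 5.51 with CpG, a change of 0.18 (SE 0.20). The share of Tgtp1 in the summed CPM of the pair was 12.9% ± 1.53 (SD, n = 3) without and 30.4% ± 5.12 with CpG (7.49% ± 5.09 and 14.4% ± 7.99 in Tlr779 without and with CL097), and the sum of the pair changed by 0.51 (SE 0.21) and was called higher. Iigp1 stood at 3.04, 2.02 and 4.02 without and 3.66, 3.503 and 5.35 with CpG. It was higher with CpG in each same-number pair, by 0.62, 1.49 and 1.34, and its log2 fold change of 1.15 (SE 0.50) was not called. It was called higher in the fit with a replicate block, with quantile normalization repeated (1.15) and with array weights (1.35). It was also called when unstimulated library 3, CpG library 1 or CpG library 2 of Tlr9het, or unstimulated library 3 of Tlr997, was left out, at 1.15 to 1.64.

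The member that fell was 9930111J21Rik1. It stood at 6.10, 5.87 and 5.45 log2 CPM in unstimulated and at 3.35, 2.98 and 3.38 in CpG-treated Tlr9het libraries. The groups did not overlap, and the log2 fold change of -2.57 (SE 0.19) was that of a gene at 0.168 times its unstimulated level. Of all genes tested, 80.1% had groups without overlap with CpG in Tlr9het. Summed with 9930111J21Rik2, the change was -2.50 (SE 0.18). 9930111J21Rik2 itself was close to the filter, at -0.13, 0.47 and -0.07 without and -1.75, -0.78 and 0.40 with CpG, and was called lower only without CpG library 3, at -1.36.

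With CpG in Tlr997 cells 6 of the 9 members were called higher and 1 lower, where 29.6% of all genes tested were called higher and 26% lower. The members' median log2 fold change was 0.68, against 0.07 over all genes. The members were chosen with these CpG libraries in view, so nothing is read from the count or the median. Irgm1 went from 7.90, 8.21 and 8.03 to 8.70, 8.93 and 8.55 log2 CPM, with a log2 fold change of 0.68 (SE 0.16). Igtp went from 6.83, 6.87 and 6.80 to 7.47, 7.45 and 7.16, with 0.53 (SE 0.14). In both regulators every CpG library lay above every unstimulated library, while Irgm2, at 6.41, 6.46 and 6.39 without and 6.70, 6.71 and 6.29 with CpG, overlapped and was not called, at 0.15 (SE 0.15). Of all genes tested, 71.2% had groups without overlap with CpG in Tlr997.

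The log2 fold changes of Ifi47, Tgtp2, Tgtp1 and Iigp1 in Tlr997 were larger than those of the regulators, a difference between genes that was not tested. Ifi47 went from 7.32, 7.46 and 7.37 to 8.27, 8.36 and 7.90 log2 CPM, a change of 0.79 (SE 0.14). Tgtp2 went from 5.02, 5.56 and 5.40 to 6.09, 6.39 and 5.85, a change of 0.79 (SE 0.20), and Tgtp1 from 2.22, 2.50 and 2.78 to 4.57, 4.87 and 4.58, a change of 2.17 (SE 0.27). As in Tlr9het, the Tgtp1 share of the pair was higher with CpG, 27.0% ± 2.00 (SD, n = 3) against 12.4% ± 1.66. Iigp1 went from 3.48, 3.80 and 4.52 to 5.13, 5.10 and 5.21, a change of 1.21 (SE 0.50) and a call that was lost when any of the 3 CpG libraries, unstimulated library 1 or 2 of Tlr997, or unstimulated library 1 of Tlr9het was left out, at log2 fold changes of 0.98 to 1.23. Igtp fell under the fold threshold, to 0.47 and 0.48, without CpG library 1 or 2.

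9930111J21Rik1 fell in Tlr997 as well, from 5.36, 5.75 and 5.00 to 4.58, 4.71 and 4.63 log2 CPM. The groups did not overlap, as for 71.2% of all genes tested, and the log2 fold change was -0.73 (SE 0.19), or 0.602 times the unstimulated level. 9930111J21Rik2 stood at 0.80, 0.43 and 1.22 without and 1.06, 1.78 and 0.89 with CpG, a change of 0.43 (SE 0.50), and was not called. Its own direction is uncertain, since reads could not always be assigned within the pair. The summed pair changed by -0.66 (SE 0.18). On average 95.6% of that sum without and 91.1% with CpG was 9930111J21Rik1, so it cannot show the direction of 9930111J21Rik2.

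Before stimulation the means compared came from unstimulated libraries, while the errors and p came from the model over all 12 libraries, CpG included. None of the 9 members was called by limma, where 0.0174% of the 11494 genes tested (2 genes) were called higher in Tlr997 and 0% lower, and 1237 genes had an unadjusted p under 0.05. Fitted on the unstimulated libraries alone, 0 genes were called. Of the members, 2 had an unadjusted p under 0.05, Ifi47 at 0.36 (SE 0.14) and 9930111J21Rik1 at -0.44 (SE 0.19), with adjusted p of 0.42 and 0.44. For Ifi47 and Igtp every Tlr997 library was above every Tlr9het library, and for the other 7 members the groups overlapped, where 13.6% of all genes had groups without overlap. The confidence interval was -0.22 to 0.46 for Irgm1 and -0.08 to 0.53 for Igtp, and it was wide for Iigp1, at -0.17 to 1.99, which includes a difference of 1 log2 unit.

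**Figure D4:**
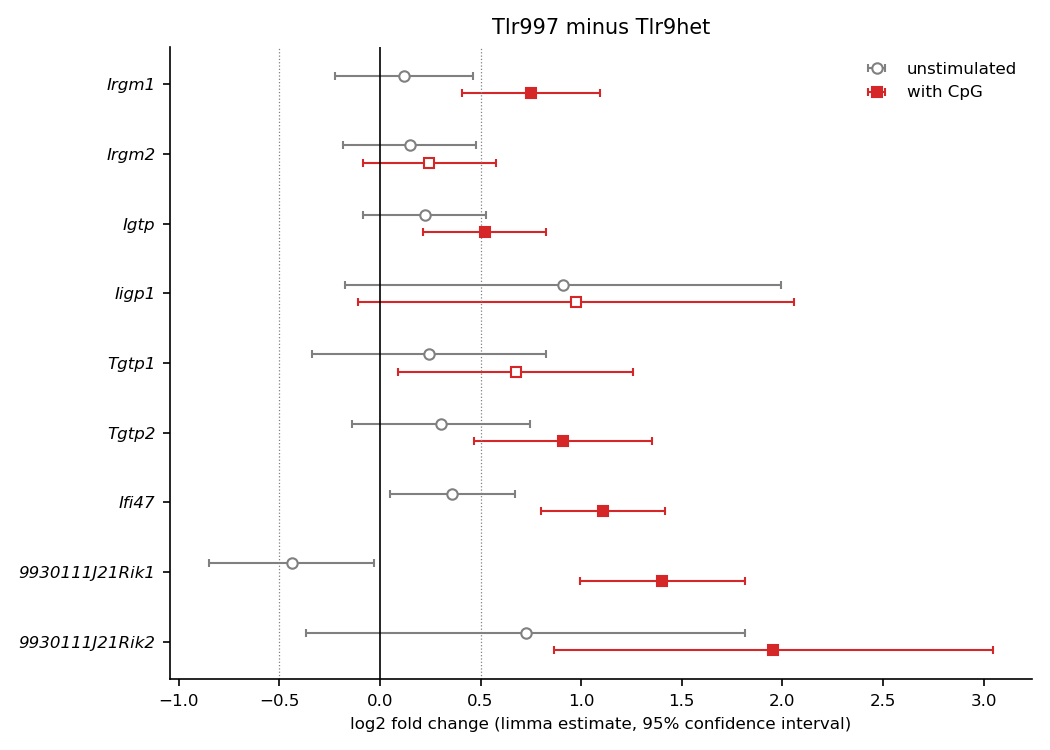
Log2 fold change of Tlr997 against Tlr9het (horizontal axis, limma estimate with its 95% confidence interval) without stimulation (circles) and with CpG (squares); filled symbols passed both thresholds. Unstimulated values lie between -0.44 and 0.91, and with CpG all 9 members lie above 0, the contrast on which the genes were chosen.

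With CpG all 9 members had a positive log2 fold change of Tlr997 against Tlr9het, from 0.25 to 1.95. This is the contrast that led to the family, so its values are described only. Past the thresholds used for calls were 6 members, all higher, and 1.25% of all genes tested were past them as higher and 1.47% as lower, but the members were chosen on these values and nothing is read from that count. Irgm1 stood at 8.72 ± 0.20 log2 CPM (SD, n = 3) in Tlr997 against 7.97 ± 0.18 in Tlr9het, a difference of 0.75 (SE 0.16). Igtp stood at 7.36 ± 0.18 and 6.84 ± 0.33, a difference of 0.52 (SE 0.14), and its groups overlapped. The groups of Irgm2 overlapped too, at 6.57 ± 0.24 and 6.32 ± 0.15.

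Of the effectors with CpG, Ifi47 stood at 8.18 ± 0.24 log2 CPM in Tlr997 against 7.07 ± 0.17 in Tlr9het, a difference of 1.11 (SE 0.14). Tgtp2 stood at 6.11 ± 0.27 and 5.20 ± 0.31, a difference of 0.91 (SE 0.20). For both genes the lowest Tlr997 library was above the highest Tlr9het library. Tgtp1, with a difference of 0.67 (SE 0.27), and Iigp1, with 0.97 (SE 0.50), overlapped between genotypes: Tlr9het CpG library 3, the highest of its group for both, stood at 4.67 for Tgtp1 and 5.35 for Iigp1. With 1 library left out at a time, the difference ranged from 0.35 to 1.01 for Tgtp1 and from 0.64 to 1.56 for Iigp1, the highest value in each without that library, and from 1.02 to 1.25 for Ifi47.

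9930111J21Rik1 with CpG stood at 4.64 ± 0.07 log2 CPM in Tlr997 against 3.23 ± 0.22 in Tlr9het, a difference of 1.40 (SE 0.19) or 2.64-fold. It was lower with CpG than without in both genotypes, and the higher Tlr997 level went with a smaller fall. The low-level 9930111J21Rik2 differed by 1.95 (SE 0.50), with groups that did not overlap, and the summed pair by 1.43 (SE 0.18). The B cell marker sum with CpG, given above, was also higher in Tlr997, and its part in these differences was not tested. Of its 5 markers 3 were called higher, against 1.25% of all genes tested.

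The difference of the CpG responses, Tlr997 minus Tlr9het, uses the same CpG libraries and is likewise described only. It was positive for all 9 members with all libraries (Iigp1 and Irgm2 changed sign without some), from 0.07 for Iigp1 to 1.84 for 9930111J21Rik1. The SE of the latter was 0.27. It was the 1 member past the thresholds, joined by Ifi47 with the replicate block within genotype or array weights, and 0.687% of all genes tested were past them as higher and 0.861% as lower. Nothing is read from this, since the members were chosen on these libraries. Next came 9930111J21Rik2 at 1.23 (SE 0.71), Ifi47 at 0.75 (SE 0.20), Irgm1 at 0.63 (SE 0.22) and Tgtp2 at 0.60 (SE 0.29). The same-number CpG differences of Irgm1 were -0.26, -0.25 and 0.65 in Tlr9het and 0.79, 0.73 and 0.52 in Tlr997. In Tlr9het number 3, 8 of the 9 members were below the group mean in its unstimulated library and all 9 were above it with CpG.

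Other IRG genes of the files were read from a list of 9 symbols, of which 8 were present and 7 passed the filter in the first experiment. Gm12250 (Irgb10, an effector that also attacks bacterial membranes) was called higher in all 3 stimulations, at 0.55 in Tlr9het, 0.99 in Tlr997 and 1.60 in Tlr779 on the log2 scale. Gm12185, the IRG gene with the same spacing of promoter letters, rose in all 3 as well, by 1.17, 1.66 and 1.95. Gm5431, which shared 18.5% of its 75-base windows with 9930111J21Rik1, fell in Tlr9het at -0.92 (SE 0.23) and had -0.52 (SE 0.23) in Tlr997 and 0.83 (SE 0.48) in Tlr779, neither of them called. Gm4951 stood at -1.26, -2.73 and -5.36 log2 CPM without and 1.22, 0.24 and -0.52 with CpG in Tlr997. It passed the filter through CpG libraries alone, so no call is given. The IRG-related Irgq fell in all 3, at -2.21, -2.20 and -2.004, with groups that did not overlap. The shares of all genes tested without overlap were 80.1%, 71.2% and 67.8% in this order. With CpG, 1 of the 7 was called between genotypes, Gm12250, higher in Tlr997 by 0.70 (SE 0.19), where 1.25% of all genes tested were called higher.

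Upstream of the family, interferon genes and receptors were read from a list of 9, of which 7 passed the filter. Ifng, the main inducer of IRG genes, stood at -0.61, -0.23 and -0.51 log2 CPM without and 1.25, 1.76 and 2.77 with CpG in Tlr9het, and at 0.30, -1.44 and -1.29 and 0.60, 1.33 and 0.40 in Tlr997. Ifnb1 stood at 2.16, 1.51 and 1.64 with CpG in Tlr9het and 1.12, 0.53 and -0.32 in Tlr997, from values under -3 in every unstimulated library. Neither would have passed the filter without its CpG libraries, so a rise with CpG was built into the passing and no call is read from it. The fitted differences between the genotypes with CpG, -1.15 (SE 0.52) and -1.32 (SE 0.69), were negative and not called. Ifngr1, the ligand-binding chain of the interferon-gamma receptor, stood at 7.06, 7.22 and 7.29 with CpG in Tlr9het and at 6.27, 6.29 and 6.33 in Tlr997. The groups did not overlap, and Ifngr1 alone in its list was called between genotypes, lower in Tlr997 at -0.89 (SE 0.08), a direction opposite to that of the IRG genes. Of all genes tested, 1.47% were called lower in that comparison.

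Of 9 signal transducers and transcription factors, 6 were called lower and 1 higher with CpG in Tlr9het, 4 lower and 1 higher in Tlr997, and 2 lower and 1 higher with CL097 in Tlr779. Of all genes tested, 28.2%, 26% and 23.6% were called lower and 29.7%, 29.6% and 22.7% higher in these comparisons. Stat2, a subunit of the complex that binds ISRE elements, stood at 7.93, 7.90 and 7.53 log2 CPM without and 6.21, 6.24 and 6.31 with CpG in Tlr9het. In Tlr997 it went from 7.49, 7.81 and 7.86 to 6.93, 7.08 and 6.93. It therefore fell in both, at -1.53 and -0.74, and with CpG it was higher in Tlr997 by 0.72 (SE 0.11), the 1 gene of the list called between genotypes. Of all genes tested, 1.25% were called higher in that comparison. The gene called higher in all 3 stimulations was Irf8, a factor of B cell and myeloid development, at 0.93, 0.58 and 0.64. Irf2, a repressor at ISRE-like sites, and the kinase gene Tyk2 were called lower in all 3, at -1.91, -2.31 and -0.97 for Irf2 and -1.70, -1.40 and -1.02 for Tyk2. In Tlr779, Stat2 changed by 0.16 (SE 0.30) and Irf1 by 0.26 (SE 0.19), neither of them called.

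Inhibitors of interferon signaling moved in different directions. Socs1, which blocks JAK kinases, rose with CpG by 2.56 in Tlr9het and 1.32 in Tlr997 on the log2 scale, and Socs3 rose by 5.54 and 4.27. With CpG, Socs1 was lower in Tlr997 at -0.82 (SE 0.20), Socs3 at -1.45 (SE 0.22) and the phosphatase gene Ptpn1 at -1.03 (SE 0.10). Usp18, which is itself induced by interferon and dampens the type I receptor, was higher in Tlr997 at 1.21 (SE 0.25). Of the 7 genes of the list, 3 were thus called lower and 1 higher, where 1.47% and 1.25% of all genes were. The list was chosen with earlier results of these data known. The study had also reported Socs1 and Socs3 as higher in Tlr9+/- cells in this comparison and named PTPN1B among the inhibitors there, so nothing is read from the count.

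Further interferon-inducible families were read in the same way. Of the 9 guanylate-binding proteins that passed the filter, large GTPases that act beside IRG proteins on the same vacuoles, 4 were called higher and 1 lower with CpG in Tlr9het, 5 higher and 1 lower in Tlr997, and 5 higher and none lower with CL097. The shares over all genes were, in this order, 29.7% higher and 28.2% lower, 29.6% and 26%, and 22.7% and 23.6%. Gbp5 rose by 3.34, 3.51 and 2.17 on the log2 scale and Gbp2 by 1.41, 1.03 and 0.69. Between the genotypes with CpG none of the 9 was called by limma, 2 had an unadjusted p under 0.05, and the median log2 fold change was 0.29. Of 15 type I interferon marker genes, 2 were called higher and 4 lower with CpG in Tlr9het, 8 higher and 1 lower in Tlr997, and 11 higher and none lower with CL097, to be read against the same shares. Between genotypes with CpG, 4 of the 15 were called higher in Tlr997 (Ifit2, Ifit3, Oas2 and Xaf1), at a median of 0.67. Of all genes tested, 1.25% were called higher and 1.47% lower between genotypes with CpG. The list was chosen with earlier results of these data known, so nothing is read from the count. For this comparison the study had already reported type I interferon and interferon signaling as its leading pathways in Tlr997. Of 10 genes of the ATG8 conjugation machinery, which guides IRG proteins to membranes, none was called between genotypes by limma and none had an unadjusted p under 0.05, with a median of 0.00.

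**Figure D5:**
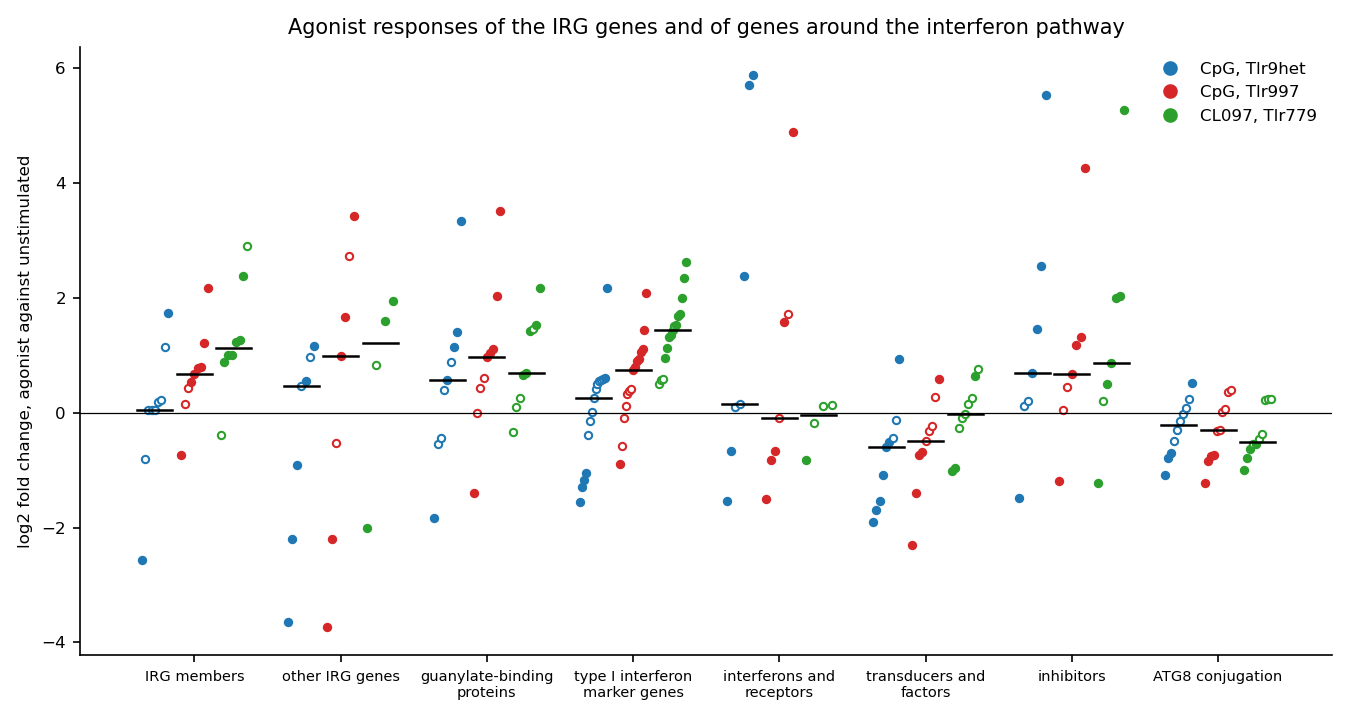
Log2 fold change with agonist (vertical axis) of each tested gene of the IRG family and of 7 gene lists around the interferon pathway, in Tlr9het (blue, CpG), Tlr997 (red, CpG) and Tlr779 (green, CL097); filled points passed both thresholds and black bars are medians. The medians of the IRG members are 0.05, 0.68 and 1.12, and those of the type I interferon marker genes 0.26, 0.75 and 1.44.

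The genes most like the family were found by the correlation of each tested gene, over the 12 libraries of the first experiment, with the mean standardised log2 CPM of the 9 members. The 10 with the highest Pearson correlation were Usp18 (r = 0.917), Rtp4 (0.904), Gm12250 (0.895), Tor3a (0.889), Rasa4 (0.879), Ms4a4c (0.876), Parp9 (0.863), Arf4 (0.855), Eif2ak2 (0.855) and Serpina3f (0.853). Over the 6 Tlr779 libraries, with the mean made anew from them, the same genes had r of 0.802 to 0.964. The 12 libraries share groups and normalization and include the contrast that led to the family, so these correlations are a description. Within the family, each member was set against the mean of the other 8 over the 12 libraries. Tgtp2 (r = 0.963), Ifi47 (0.957), Irgm1 (0.944) and Igtp (0.903) followed the rest closely, Irgm2 (0.737), 9930111J21Rik2 (0.729), Tgtp1 (0.597) and Iigp1 (0.544) less so, and 9930111J21Rik1 did not (-0.12). Over the 6 Tlr779 libraries the same correlations were 0.743 to 0.976 for Irgm1, Irgm2, Igtp, Tgtp1, Tgtp2 and Ifi47, 0.393 for Iigp1, -0.15 for 9930111J21Rik1 and -0.676 for 9930111J21Rik2.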

How the data were processed

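RNA-seq was analysed in 18 libraries of splenic B cells, 3 in each of 6 groups taken from the library titles. The authors deposited log2 CPM values for each library: per the labels and the study's methods, reads of the stranded mRNA kit were checked with FastQC 0.11.7, trimmed with Trim Galore 0.6.5, aligned with STAR 2.6.1a to mm10, counted per gene with featureCounts (Subread 2.0.1), then quantile normalized and transformed with limma's voom. The gene annotation behind the counts is not given in the sources used here. The log2 CPM were taken as deposited, with no further pseudocount. Counts and depth are not known from these files, and the number of libraries limits the precision. The voom values also carried an offset per replicate number: of 6209 genes under -4 log2 CPM in all libraries, 6008 had a single value for each number, and 524 of these differed between numbers, so the values may have been adjusted for the number before deposit, which would understate the spread between libraries.

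The 9 members and all lists were chosen with earlier results of these data known. Genes with over 0 log2 CPM in at least 3 of the fitted libraries were fitted with limma 3.58.1 in R 4.3.3 (a mean per group, empirical Bayes with a variance trend). The 12 libraries of the Tlr7-/- experiment shared 1 model, and the 6 Tlr779 libraries were fitted alone. P-values were adjusted by Benjamini-Hochberg over all genes tested, and calls required values below 0.05 together with a log2 fold change beyond 0.5 in either direction. Tests are two-sided. The labels do not state that a number marks a mouse, so the p-values measure the spread between these libraries, which may in part be technical. Same-numbered libraries deviated together in Tlr9het (correlation of deviations from the group means 0.524, 0.27 and 0.514) and in Tlr779 (0.219, 0.413 and 0.284). The main fits, their errors and their p-values did not use the numbers as pairs. The fit with a replicate block is an alternative, given where it changes a call. All 9 members were named in every comparison, other genes by list, and the 10 most correlated genes by the rule stated beside them. The fit was tested on simulated data. Alternatives were the filter, the scale of the values, the variance trend, the libraries in the model, normalization, the fold threshold, library weights, the replicate block and leaving out each library. After the data were seen, a fit with the near copies summed was added. Promoters and gene positions came from RefSeq (GRCm38.p6), and shared 75-base windows and exon lengths from the GENCODE vM21 transcripts, which may not be the authors' annotation. Some genes of the lists are not reported here. Protein sequences and Tlr7WT control libraries were not analysed here.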

Additional observations from a re-analysis of the deposited data

Results flagged for a closer look

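For the CpG response of 9930111J21Rik1, the difference of the log2 fold changes, Tlr997 minus Tlr9het, was 1.84 (SE 0.27). It is listed because it was past the thresholds in the limma fit of the difference itself. It was not past them without the filter on low values (adjusted p = 0.051, limma) or with all 18 libraries in 1 model (adjusted p = 0.061). The gene was lower with CpG in all 3 same-number pairs of each genotype, at log2 differences of -2.75, -2.89 and -2.08 in 9930111J21Rik1 of Tlr9het and -0.78, -1.05 and -0.37 in Tlr997. It was among the genes that led to the choice of the family, so the value is a description and the fit is no support for it. Groups of 3 libraries were not screened for outlying samples.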

How the results depend on the processing

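Over all comparisons and alternatives, 1251 values of single members were recomputed. Of these, 1127 kept their direction and their side of the thresholds, 82 lost a call, 22 gained one and 20 changed direction. Some calls gained and directions changed were those of 9930111J21Rik2 in the summed pair, which was mostly 9930111J21Rik1 and follows that gene. For CpG in Tlr997, a fold threshold of 1 left 2 members called. For CL097 in Tlr779, no member was called without the filter on low values and 3 without the variance trend. Between the genotypes with CpG, where counts are a description since the members were chosen there, 2 members were called without the filter, 2 without the variance trend, 3 with all 18 libraries in 1 model and 3 with a fold threshold of 1. For the difference of the CpG responses, 0 members were called without the filter and 0 with all 18 libraries in 1 model, and 2 with array weights. The cause of these changes was not tested, except that a higher fold threshold can only remove calls.

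When 1 library was left out at a time, the members called numbered 2 to 3 for CpG in Tlr9het, 5 to 7 for CpG in Tlr997, 3 to 6 for CL097 in Tlr779, 0 to 0 between the unstimulated genotypes, 2 to 7 between the genotypes with CpG and 1 to 3 for the difference of the responses. Values near 0 changed direction: for CpG in Tlr9het, Irgm1 ranged from -0.16 to 0.182, Tgtp2 from -0.017 to 0.334, Ifi47 from -0.116 to 0.173 and Irgm2 from -0.136 to 0.204. Between the unstimulated genotypes, Irgm1 ranged from -0.088 to 0.254 and Irgm2 from -0.04 to 0.30. For the difference of the responses, Irgm2 ranged from -0.054 to 0.286 and Iigp1 from -0.431 to 0.655. With array weights, the CpG response in Tlr9het was -0.042 for Irgm1, -0.03 for Ifi47 and -0.056 for Irgm2. The sum of 9930111J21Rik2 and its near copy had -0.66 for CpG in Tlr997 and -0.40 between the unstimulated genotypes. Most of that sum was 9930111J21Rik1, so its sign does not show the direction of 9930111J21Rik2.

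With the replicate block within each genotype, 3 members were called for CpG in Tlr9het and 7 for CL097 in Tlr779, through Iigp1 in each, 7 for CpG in Tlr997 and 2 for the difference of the responses, through Ifi47. A block across the genotypes left 5 called with CpG, without Igtp, and it changed no other member's call than those of Iigp1 and Igtp. In Tlr997 the same-number correlations were 0.394, 0.066 and 0.037, and not every library correlated best with its own number, so there is less ground for pairs there. Over all genes tested, counts moved by more than 1.5 times as follows. A fold threshold of 1 left 4059 of 6649 genes called for CpG in Tlr9het, 3768 of 6387 in Tlr997 and 2581 of 5133 for CL097. Between the unstimulated genotypes the count was 2, and 0 without the filter or with only the libraries compared, and up to 4 without 1 library. Between the genotypes with CpG it was 313, against 187 without the filter, 74 and 680 with a fold threshold of 1 or none, 485 with array weights and 187 to 410 without 1 library. For the difference of the responses it was 178, against 78 without the filter, 98 without the variance trend, 46 with a fold threshold of 1, 377 with array weights, 328 with the block within genotype and 87 to 295 without 1 library. The counts of 410 and 295 came without Tlr997 unstimulated library 3.

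Depth is unknown, so no limit of detection can be given. The lowest members, 9930111J21Rik2 and in Tlr779 Iigp1 and Tgtp1, stood near or under 0 log2 CPM in some libraries, where the offset of voom weighs most.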
